A study of Mus musculus with 36 samples.

Results

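The contact landscape around T was described position by position on both sides of a fixed point next to the gene. T, also called Brachyury, encodes a T-box transcription factor of the primitive streak, the nascent mesoderm and the notochord, and loss of T function shortens the body axis and the tail in mice. In the nucleus a gene's start can lie close to distant stretches of the same chromosome, and such proximity often links promoters with enhancers within a domain. Enhancers that act in the notochord have been described upstream of T. UMI-4C reads such proximity by joining DNA ends that lie near each other, sequencing what is joined to 1 chosen fragment, the viewpoint, and counting the joined molecules by molecular identifiers.

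The members are all positions of the T table with a finite contact score in 4 columns, which left 1033 of 1053 positions, among 4130 such positions at the 4 viewpoints of the study. The 4 columns hold mouse embryonic stem cells (ES, day 0) and embryoid bodies (EB, day 6), each from wild type cells (WT, Whsc1+/+) and from Whsc1-/- cells (KO). Whsc1 encodes an enzyme that methylates histone H3 at lysine 36. Each column stands for 2 labelled libraries that share 1 set of scores, so no replicate spread, error or test between conditions can be given. Embryoid bodies are aggregates of differentiating cells, and the labels name neither the cell types in them nor the clones of the lines. The cells were cultured before differentiation either with LIF and inhibitors or with serum, and the labels do not say which served for which library.

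The viewpoint lies at position 8433756 of chromosome 17 (mm10). It falls 0.667 kb before the start of T, which is transcribed towards higher coordinates, so the lower side is upstream of T and the higher side downstream. The viewpoint also lies inside the span of LOC115486424, a predicted coding gene. Of the 1033 positions, 520 lie on the lower side, out to 225 kb, and 513 on the higher side, out to 207 kb, with a median spacing of 329.5 bases. No score exists in the 7.69 kb between 8429467 and 8437160, which hold the start of T. The 5 table positions there are infinite in every column. Another 15 positions at the outer ends lack a KO score. The 7 pairs of neighbouring GATC letters found within promoter windows at 2 other viewpoints all had a table position within 2 bases of their midpoint. The positions there thus sit at the centres of fragments between GATC sites. At T the promoter windows hold 0 such pairs.

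A contact score is the authors' value and takes both signs. It is highest beside the viewpoint, so higher scores are read as more contact. Its unit and log base are not stated in any source used, and no counts could be recovered, so the depth is unknown. Neighbouring scores change smoothly, with a median step between adjacent positions of 0.011 in ES WT, 0.020 in EB WT, 0.0065 in ES KO and 0.016 in EB KO. Neighbouring positions and windows therefore do not count as independent observations. The KO columns lack positions that the WT columns hold, and KO minus WT has a median of -0.30 over the windows in both stages. The scaling of the genotypes may thus differ, and differences between them are also given after removal of that median (centring).

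Promoter sequences are shown for T, whose start lies next to the viewpoint, and for Gm33799 and Mpc1, whose starts flank the upstream contact peak of ES WT. They are 250 bases before the start in RefSeq's GRCm38.p6, the assembly that mm10 represents, written 5′ to 3′ on the gene's strand, with the GATC letters in capitals. T is on the plus strand at chr17:8434173-8434422, Gm33799 on the minus strand at chr17:8272518-8272767, and Mpc1 on the plus strand at chr17:8283537-8283786.
T: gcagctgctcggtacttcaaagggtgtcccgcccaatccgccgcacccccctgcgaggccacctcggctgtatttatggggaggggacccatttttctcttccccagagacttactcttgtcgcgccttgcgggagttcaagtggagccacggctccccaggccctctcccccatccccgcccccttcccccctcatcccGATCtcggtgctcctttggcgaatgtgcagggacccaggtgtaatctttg
Gm33799: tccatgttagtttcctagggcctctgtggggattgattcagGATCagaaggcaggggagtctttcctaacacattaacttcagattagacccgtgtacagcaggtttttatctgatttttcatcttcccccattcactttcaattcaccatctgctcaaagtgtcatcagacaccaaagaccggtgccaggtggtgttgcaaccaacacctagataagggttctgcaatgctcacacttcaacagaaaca
Mpc1: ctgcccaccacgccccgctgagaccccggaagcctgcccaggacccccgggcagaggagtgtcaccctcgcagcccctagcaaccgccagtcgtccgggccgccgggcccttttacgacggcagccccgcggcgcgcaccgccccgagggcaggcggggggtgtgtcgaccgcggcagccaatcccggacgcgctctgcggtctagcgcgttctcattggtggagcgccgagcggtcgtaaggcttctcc

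Their base composition differs. G and C make up 62.8% of the T sequence, 45.2% of Gm33799 and 73.6% of Mpc1, and CG pairs number 14, 2 and 32, against medians of 52.4% and 6 over 32851 promoters of the same length. GATC is present in T and Gm33799 once each, and in 41.9% of all these promoters. A T-box half-site, TCACACCT on either strand, is present in 0 of these 3 sequences and in 1.12% of all. These counts concern the letters of these windows only.

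**Figure D1:**
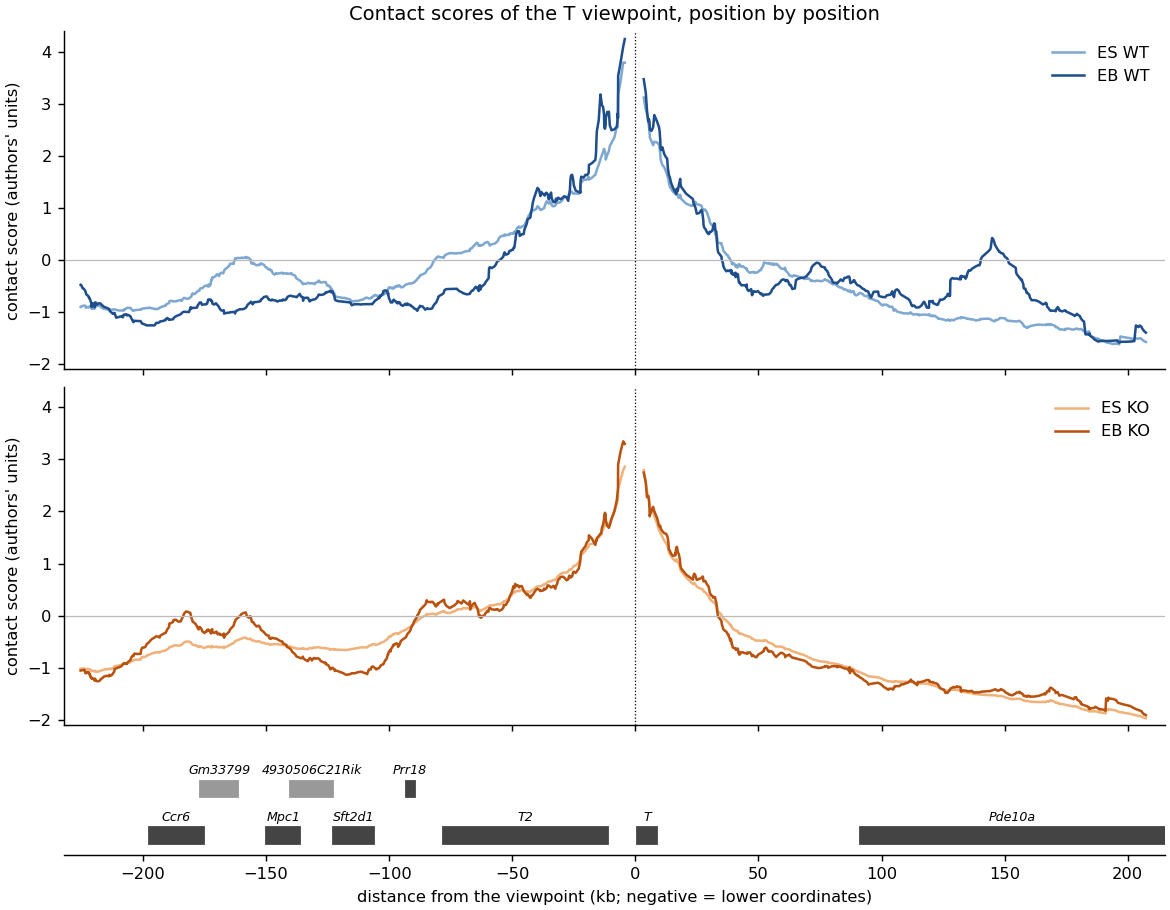
Contact score (vertical axis, the authors' units) against distance from the T viewpoint in kb (horizontal axis, negative for lower coordinates), as 1 line per column, WT above and KO below. Gene spans are drawn to scale under the profiles, coding genes dark and non-coding genes grey. All 4 profiles are highest at the viewpoint, and EB WT has a peak of 0.43 at 145 kb on the higher side that the other 3 columns lack.

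All 4 profiles were highest beside the viewpoint, and in each the score first went below 0 further out upstream of T than downstream. The T gene itself (chr17:8434423-8442496) has scores only from 8437160 on, at 11 positions, some of them under 5 kb from the viewpoint. Over this part the mean score was 2.55 in ES WT, 2.77 in EB WT, 2.23 in ES KO and 2.19 in EB KO. On the higher side the score was first below 0 at 38.8 kb in ES WT, 35.3 kb in EB WT, 35.3 kb in ES KO and 33.6 kb in EB KO. These 4 crossings lie close together, in the stretch without annotated genes between T and Pde10a. On the lower side the first score below 0 came at 81.8 kb in ES WT, 85.3 kb in ES KO, 62.0 kb in EB KO and 55.3 kb in EB WT. The first crossing thus lay beyond T2 in both ES columns and inside T2 in both EB columns. In EB KO this was a shallow dip, to -0.04 at 62.8 kb, and scores at or above 0 recurred out to 183 kb. Scores at or above 0 also recurred upstream in ES WT, out to 163 kb. In EB WT the last score at or above 0 lay at 54.3 kb upstream but at 151 kb downstream. T2 is a neighbour of T that was found through a mutation affecting the body axis.

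The steepest parts of the profiles were edges. An edge was a local extreme of at least 0.5 in the step from the 5 kb mean inside a point to that outside. A downstream edge lay at 35 kb in both EB columns, with a step of -0.63 from 0.46 to -0.17 in EB WT and of -0.63 from 0.24 to -0.39 in EB KO. The ES columns also fell at 35 kb, from 0.53 to 0.07 in ES WT and from 0.20 to -0.14 in ES KO. These falls were under 0.5, and neither ES column had a listed edge beyond 10 kb on the higher side. Upstream, EB WT had edges at 18 kb, with a step of -0.99, and at 42 kb, with a step of -0.53, both within T2. EB KO had an upstream edge at 22 kb with a step of -0.55, also within T2 and at the start coordinate of the long non-coding RNA Gm34036. The other edges lay beside the viewpoint, where every profile is steep: at 8 to 10 kb on both sides in ES WT and ES KO, at 8 kb upstream in EB KO and at 12 kb downstream in EB WT.

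The rate of decline gives the same picture in numbers. From 5 to 40 kb the score changed per doubling of distance by -0.74 in ES WT, -0.84 in EB WT, -0.71 in ES KO and -0.85 in EB KO on the lower side. On the higher side the corresponding slopes were -0.89, -1.11, -0.88 and -0.93, so the decline was steeper downstream in every column. From 40 to 200 kb the lower-side slopes were -0.56, -0.57, -0.55 and -0.38, in the same order. The higher-side slopes were -0.71 in ES WT, -0.30 in EB WT, -0.71 in ES KO and -0.50 in EB KO. The 2 ES columns were thus alike in slope on both sides, and EB WT was the flattest at long range downstream.

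Windows of 5 kb, counted outward from 5 kb on, gave 85 windows, 44 on the lower side and 41 on the higher, with 4 to 22 positions each. Over these windows the columns most alike were ES KO and EB KO, with a root mean square difference of 0.20. These KO columns shared single steps, such as 0.083 in ES KO and 0.24 in EB KO at 191 kb downstream. They are thus not independent of each other, and their likeness is not that of separate measurements. ES WT differed from ES KO by 0.32, from EB KO by 0.36 and from EB WT by 0.46. EB WT differed from ES KO by 0.61 and from EB KO by 0.65. About the mean difference the 3 pairs with EB WT gave 0.46, 0.57 and 0.62, and the other 3 pairs 0.20 to 0.28, so EB WT stood apart from the other 3 columns. The comparisons of EB with ES in WT, of KO with WT in EB and of the stage differences share this column, and their values are given side by side without being read as support for one another.

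Peaks were local maxima, at least 5 kb away, that stood 0.3 or more above their surroundings (the prominence). ES WT had 1 peak, EB WT 7, ES KO 0 and EB KO 3. With the profiles first averaged over 2 kb, EB WT had 3, of which those at 73.7 and 145 kb downstream were among its 7, and EB KO had 2, the far upstream ones.

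The peak of ES WT lay at position 8275475, 158 kb upstream of the viewpoint, with a prominence of 0.86. This position lies 2.96 kb beyond the end coordinate of Gm33799, a long non-coding RNA on the minus strand whose start is thus its nearest annotated start. On the other side comes Mpc1, whose product helps carry pyruvate into mitochondria. The score there was 0.063 in ES WT, -0.92 in EB WT, -0.42 in ES KO and 0.060 in EB KO. EB KO had a peak at the same position with a prominence of 0.49, and ES KO had a local maximum there with a prominence of 0.24, under the threshold. EB WT had no local maximum at this position with a prominence of 0.2 or more. The 3 columns other than EB WT therefore share the position of this maximum, at a similar score in ES WT and EB KO and a lower one in ES KO. The KO columns share single steps and are not independent of each other. The maximum in ES KO therefore does not count as an observation separate from that in EB KO.

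EB KO had a second far peak at 8251237, 183 kb upstream, inside Ccr6, a chemokine receptor gene. Its score there was 0.079, against -0.74 in ES WT, -0.99 in EB WT and -0.50 in ES KO, and its prominence was 1.22. Between the 2 far peaks of EB KO lay a valley of -0.43 at 167 kb, within Gm33799. EB KO also had a peak of 0.31 at 8356052, 77.7 kb upstream and 0.292 kb inside the start coordinate of T2, where the scores were 0.056 in ES WT, -0.61 in EB WT and 0.087 in ES KO.

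A valley within Sft2d1, a gene of vesicle transport, was common to the upstream profiles. Its floor lay at 115 kb in ES WT, at -0.80, and at 117 kb in EB KO, at -1.14. In ES KO the valley at 117 kb was shallow, at -0.66 with a prominence of 0.24, and in EB WT the one at 115 kb was at -0.87 with a prominence of 0.28. At these floors the score was lowest in EB KO and highest in ES KO.

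The peaks of EB WT lay elsewhere. Upstream they were at 10.7, 14.2, 25.7 and 102 kb, and the highest of these, at 8419578 within T2, scored 3.19 against 1.94 in ES WT, 1.54 in ES KO and 1.57 in EB KO. Downstream they were at 7.70 kb inside T, at 73.7 kb and at 145 kb. The peak at 73.7 kb, position 8507438, lies 17.7 kb before the span of Pde10a, and scored -0.047 against -0.39 in ES WT, -0.86 in ES KO and -1.00 in EB KO. Its valley towards the viewpoint, at 51.9 kb, scored -0.68. Far upstream, EB WT had a valley of -1.25 at 199 kb with a prominence of 0.78, just outside Ccr6. Beyond it the score rose, and at 220 to 225 kb EB WT was the highest column. The means there were -0.90 in ES WT, -0.71 in EB WT, -1.04 in ES KO and -1.13 in EB KO.

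The most prominent peak of all columns was that of EB WT at 8578692, 145 kb downstream, with a prominence of 1.34. The score there was 0.43 in EB WT, against -1.16 in ES WT, -1.53 in ES KO and -1.44 in EB KO. No other column had a peak or valley of 0.2 or more within 40 kb of it. The position lies in the annotated span of Pde10a, which encodes a cyclic nucleotide phosphodiesterase, and 9.74 kb beyond the pseudogene LOC108168312. The starts of Pde10a in the RefSeq promoter table lie much further out, 368 and 416 kb from the viewpoint, where the table holds no positions. The span itself begins 91.4 kb from the viewpoint, and the gene is on the plus strand. The peak therefore lies inside the span, beyond its first coordinate and before the 2 listed starts. From its inner valley at 119 kb, at -0.91, the EB WT score climbed to the peak, and 0.29 of the climb was a single step between neighbouring positions at 128 kb. Such steps of 0.2 or more beyond 20 kb were found 4 times in EB WT, 1 time in EB KO and 0 times in both ES columns.

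**Figure D2:**
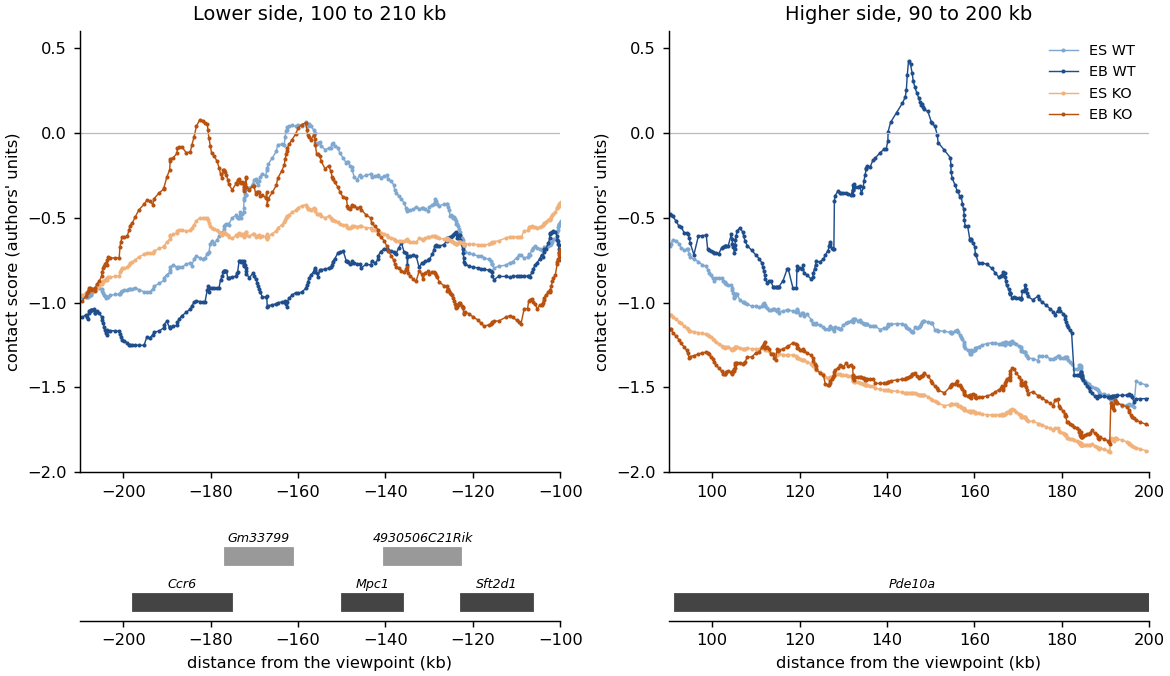
Contact scores (vertical axis, the authors' units) of single positions (points) against distance from the viewpoint in kb (horizontal axis), for the distal lower side (left) and the distal higher side (right), with gene spans below. On the left, ES WT, ES KO and EB KO have a local maximum at 158 kb and EB WT does not. ES KO and EB KO are not independent of each other. On the right, EB WT alone climbs to 0.43 at 145 kb, within the span of Pde10a.

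The comparison of EB with ES asks how the contacts of T differ between undifferentiated and differentiating cells. In WT, contacts with the far downstream region in Pde10a were higher in EB, and contacts with 2 upstream regions were lower. Of 85 windows, 21 (24.7%) differed by at least 0.5, against 16.7% of the windows at all 4 viewpoints. In EB, 9 of 85 were higher, a share not far from the 8.96% of all windows in that direction. Another 12 of 85 were lower, against 7.76% of all windows. On the lower side 34 of 44 windows were lower in EB, and on the higher side 32 of 41 were higher. For these counts by sign no share over all 4 viewpoints is given.

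The higher block in WT ran over 40 kb, from 125 to 165 kb downstream (chr17:8558756-8598755). It holds the pseudogenes Gm15425, Gm17087 and LOC108168312 within the span of Pde10a. Its mean score was -1.17 in ES WT, -0.25 in EB WT, -1.54 in ES KO and -1.47 in EB KO. EB minus ES was 0.92 in WT and 0.07 in KO. At single positions the WT difference reached 1.58 at 145 kb, and it stayed at or above 50% of that value over 22.7 kb, from 135 to 157 kb. Just outside the block, EB minus ES in WT was 0.29 at 120 to 125 kb and 0.34 at 165 to 170 kb.

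A second higher block in WT was a single window at 10 to 15 kb upstream (chr17:8418757-8423756), over the end of T2 nearest to T. Its mean was 2.04 in ES WT, 2.80 in EB WT, 1.68 in ES KO and 1.75 in EB KO. EB minus ES was thus 0.76 in WT and 0.07 in KO.

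The nearer lower block in WT ran from 60 to 90 kb upstream (chr17:8343757-8373756). It covers the other end of T2, all of Gm46592, a predicted coding gene, and the edge of Prr18. Its mean was 0.06 in ES WT, -0.68 in EB WT, 0.07 in ES KO and 0.17 in EB KO, so EB WT was the only column with a negative mean. EB minus ES was -0.74 in WT and 0.11 in KO. Contacts with the 2 ends of T2 thus differed in opposite directions with stage in WT.

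The far lower block in WT ran from 145 to 170 kb upstream (chr17:8263757-8288756), over the start of Gm33799 and the start of Mpc1. Its mean was -0.10 in ES WT, -0.86 in EB WT, -0.52 in ES KO and -0.24 in EB KO, and EB minus ES was -0.76 in WT and 0.28 in KO. At single positions the lowest WT difference was -1.06, at 163 kb inside Gm33799. It stayed at or beyond 50% of that value over 22.5 kb, from 148 to 170 kb, a width close to that of the downstream peak. A single window at 50 to 55 kb downstream, with no annotated gene, was also lower in EB in WT, by 0.55, and by 0.20 in KO.

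**Figure D3:**
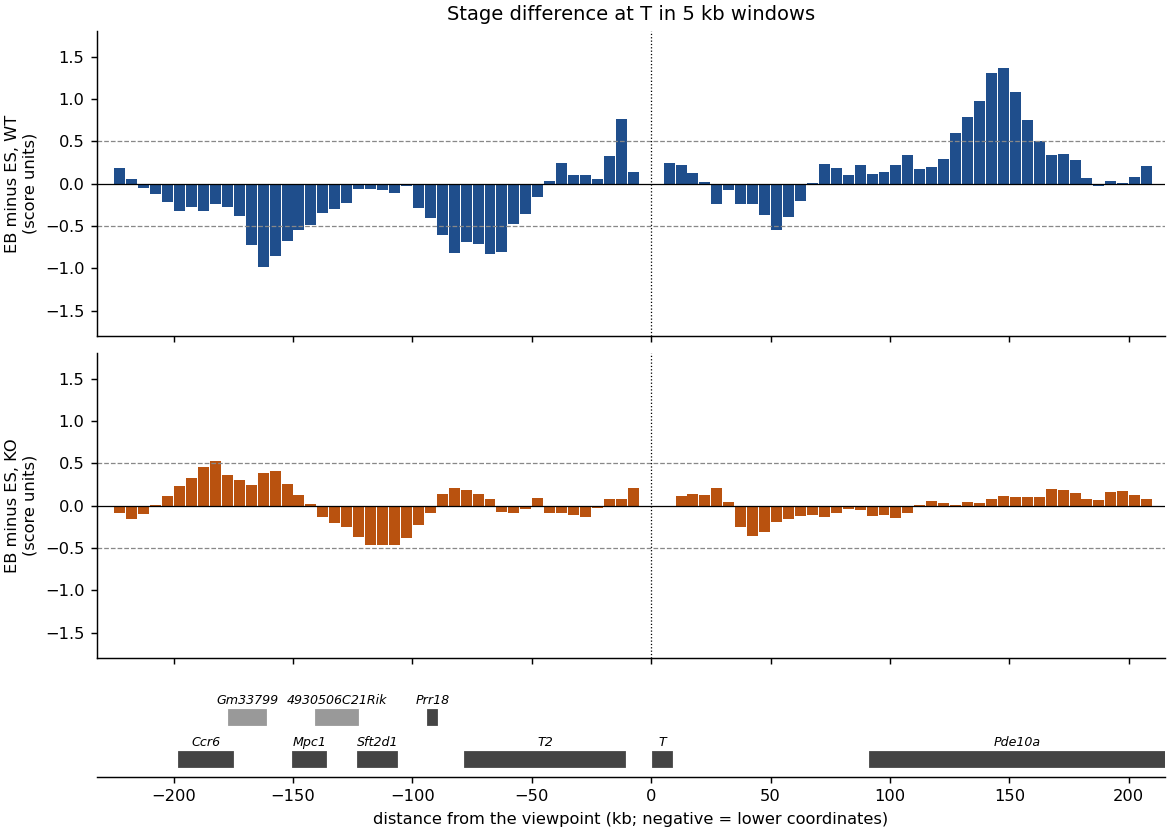
EB minus ES contact score (vertical axis, score units) in 5 kb windows against distance from the viewpoint in kb (horizontal axis), WT above and KO below, as 1 bar per window, with dashed lines at 0.5 and -0.5. In WT 21 bars pass the lines, in blocks upstream at 60 to 90 and 145 to 170 kb and downstream at 125 to 165 kb. In KO 1 bar does, at 180 to 185 kb upstream.

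In KO few windows differed between the stages, at a share close to that over all viewpoints. The KO columns shared single steps, such as 0.083 in ES KO and 0.24 in EB KO at 191 kb downstream. They are thus not independent of each other, and their small stage difference is not that of 2 separate measurements. Of 85 windows, 1 (1.18%) reached 0.5, against 1.49% of the windows at all 4 viewpoints, or 0.299% in the higher direction, and 0 windows were lower by 0.5, against 1.19%. This window, at 180 to 185 kb upstream (chr17:8248757-8253756) in Ccr6, had means of -0.73 in ES WT, -0.97 in EB WT, -0.53 in ES KO and 0.00 in EB KO. EB minus ES was 0.53 in KO and -0.25 in WT, and the KO value was 0.49 after centring. Centring instead put 1 lower window past 0.5, at 110 to 115 kb upstream in Sft2d1, with -0.51 after centring and -0.47 as deposited. At single positions the highest KO difference was 0.58, at 183 kb in Ccr6, and the lowest -0.51, at 109 kb in Sft2d1.

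Set side by side, 21 windows passed 0.5 only in WT, 1 only in KO and 0 in both genotypes. With only 1 window past 0.5 in KO, the 0 in both says nothing about overlap. The differences had the same sign in 45 windows and opposite signs in 40. The WT difference was the greater in size in 59 of 85 windows. For these counts no share over all 4 viewpoints is given. The SD of the stage difference over windows was 0.47 in WT and 0.21 in KO, which measures unevenness along the chromosome and not replicate error. Subtracting the WT stage difference from the KO one gave at least 0.5 in 26 windows (30.6%), against 18.2% at all 4 viewpoints. It was positive in 18 of these, all on the lower side, against 8.96% of all windows in that direction. It was negative in 8 of the 85 windows, a share close to the 9.25% of all windows in that direction. Of these 8, 7 were downstream.

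These windows formed 4 blocks. From 140 to 200 kb upstream (chr17:8233757-8293756), over Ccr6, Gm33799 and most of Mpc1, the mean was 0.81, with 1.46 at the single position 8273754. From 60 to 90 kb upstream it was 0.85. From 125 to 160 kb downstream (chr17:8558756-8593755) it was -0.91, with -1.49 at the position of the EB WT peak. In the window at 10 to 15 kb upstream it was -0.69. The difference between the genotypes could not be tested.

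Genes near T were ordered by their start sites, using positions within 2.5 kb of each. At the start of Gm33799, 161 kb upstream, the mean score was 0.02 in ES WT, -0.98 in EB WT, -0.48 in ES KO and -0.07 in EB KO. It was the start with the greatest stage difference of those measured, at -1.00 in WT and 0.41 in KO. At the first listed start of Mpc1, 150 kb upstream, the scores were -0.14 in ES WT, -0.75 in EB WT, -0.54 in ES KO and -0.37 in EB KO, and EB minus ES was -0.61 in WT and 0.17 in KO.

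Ccr6 has 2 listed starts, and the stage difference at both had opposite signs in the genotypes. EB minus ES was -0.32 in WT and 0.23 in KO at the one 198 kb upstream, and -0.30 in WT and 0.37 in KO at the one 191 kb upstream. At the start 191 kb upstream the scores were -0.85 in ES WT, -1.15 in EB WT, -0.66 in ES KO and -0.29 in EB KO, so EB KO was the highest and EB WT the lowest. At the shared start region of Sft2d1 and 4930506C21Rik, 123 kb upstream, the scores were -0.58, -0.65, -0.65 and -1.02 in the same order, with EB KO the lowest. At the start of Gm46592, 85.8 kb upstream, they were -0.25, -0.92, -0.01 and 0.18. Prr18, which encodes a proline-rich protein, had -0.48, -0.85, -0.27 and -0.40 at its first listed start, 93.3 kb upstream.

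The nearest starts with scores, of Gm16702 and Gm34036, had small stage differences. So did the far start of Sft2d1 in WT, at -0.07, but in KO it had -0.37. At Gm16702, a long non-coding RNA 44.3 kb upstream within T2, EB minus ES was -0.06 in WT and -0.06 in KO. At Gm34036, 19.9 kb upstream, it was 0.11 in WT and 0.09 in KO. Over whole spans, T2 (142 positions) had 0.85 in ES WT, 0.70 in EB WT, 0.60 in ES KO and 0.59 in EB KO. The covered part of Pde10a (282 positions) had -1.20, -0.78, -1.56 and -1.50. Of the 19 annotated genes that overlap the covered region, 10 had at least 10 positions in their span, and 9 had a listed start with scores around it.

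The comparison of KO with WT asks how the contacts of T differ without Whsc1. In ES the profiles had nearly the same shape downstream but not upstream, and KO was lower in most windows. Of 85 windows, 71 were lower in KO, among them all 41 downstream (30 of 41 after centring), and 2 (2.35%) reached 0.5, both lower, against 3.28% at all 4 viewpoints, or 0.896% in that direction. None was higher by 0.5, against 2.39%. They were at 5 to 10 kb upstream and at 75 to 80 kb downstream, and had -0.22 and -0.20 after centring. Centred on the median of -0.30, 5 windows reached 0.5, all higher in KO and all upstream. No share over all 4 viewpoints is given for this count or for the counts by sign. Downstream the SD of KO minus WT over windows was only 0.08, so the downstream ES profiles ran nearly parallel, while upstream it was 0.23. The highest difference at a single position, 0.28 as deposited, lay 89.9 kb upstream in Prr18.

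In EB the genotypes differed more, with KO higher around Ccr6, Gm33799 and the far end of T2, and lower in Pde10a. Of 85 windows, 44 (51.8%) reached 0.5, against 23.0% at all 4 viewpoints. Of these, 16 were higher in KO, all upstream (11.6% of all windows in that direction), and 28 lower (11.3%). Centring turned this split to 21 higher and 9 lower, so the balance of directions depends on the scaling. No share over all 4 viewpoints is given after centring.

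The upstream blocks in EB were as follows. From 60 to 95 kb upstream (chr17:8338757-8373756), over Prr18, Gm46592 and part of T2, the means were -0.01 in ES WT, -0.71 in EB WT, 0.03 in ES KO and 0.11 in EB KO. KO minus WT in EB was 0.81 there, or 1.11 after centring. The highest value at a single position was 1.23, at 84.8 kb. From 150 to 170 kb (chr17:8263757-8283756), mainly over Gm33799, KO minus WT was 0.70, or 1.00 after centring. From 175 to 200 kb (chr17:8233757-8258756), over Ccr6, it was 0.82, or 1.12 after centring. In these blocks EB KO lay above EB WT, while KO minus WT in ES was 0.04, -0.44 and 0.15.

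Downstream in EB, KO was lower in all 41 windows as deposited and in 31 after centring, counts given without a share over all viewpoints. From 120 to 180 kb (chr17:8553756-8613755), in Pde10a, the means were -0.47 in EB WT and -1.47 in EB KO, a difference of -1.00, or -0.70 after centring. The lowest value at a single position was -1.86, at 145 kb. From 65 to 110 kb (chr17:8498756-8543755), around the start coordinate of the Pde10a span, it was -0.68, or -0.38 after centring. Near the viewpoint, KO minus WT was -1.04 at 10 to 15 kb upstream, or -0.74 after centring, and -0.63 at 25 to 45 kb upstream, both in T2. The window at 5 to 10 kb downstream, over the end of T, had -0.61. The last 2 had -0.33 and -0.31 after centring, and the window at 205 to 210 kb downstream had -0.54 as deposited and -0.24 after centring.

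**Figure D4:**
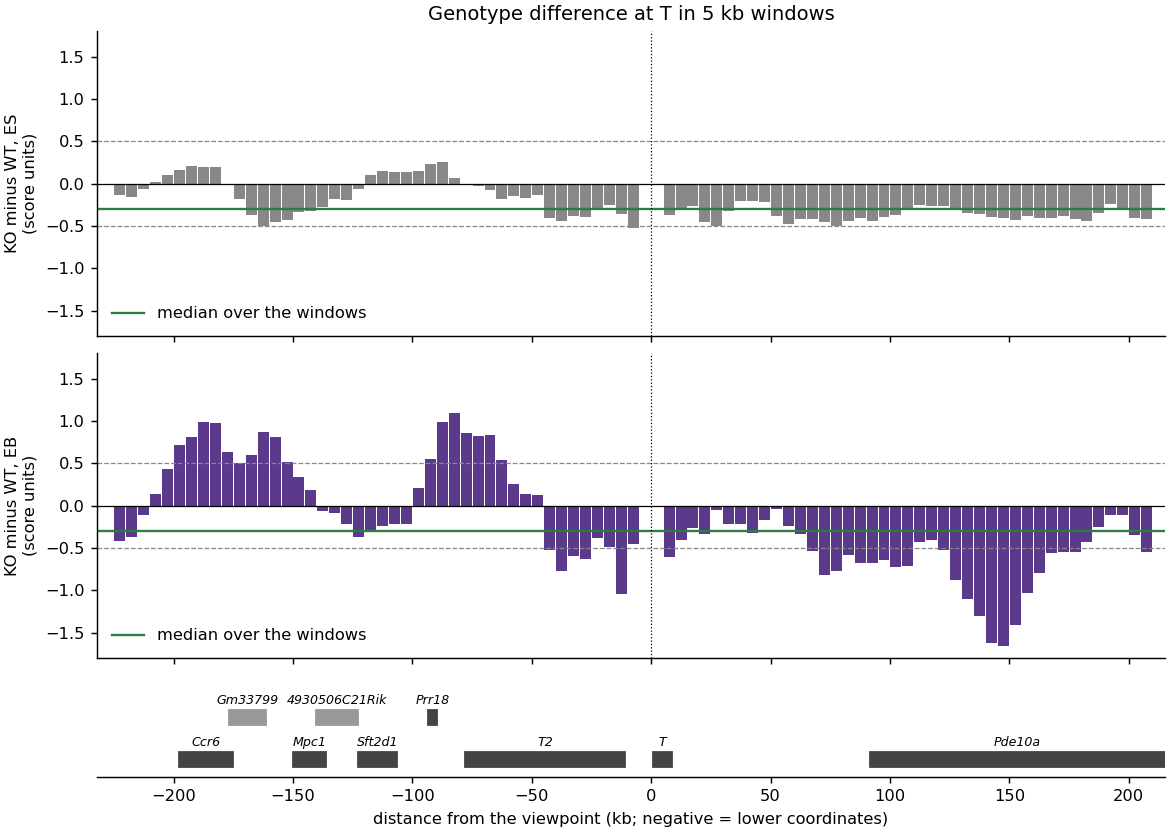
KO minus WT contact score (vertical axis, score units) in 5 kb windows against distance from the viewpoint in kb (horizontal axis), ES above and EB below, as 1 bar per window, with dashed lines at 0.5 and -0.5 and a green line at the median over the windows, which is -0.30 in both. The ES bars run from -0.52 to 0.26, and the EB bars from -1.66 in Pde10a to 1.09 upstream.

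The 2 sides of the viewpoint were compared at matched distances. Over the 41 distances present on both sides, the lower side exceeded the higher by 0.61 in ES WT, 0.09 in EB WT, 0.86 in ES KO and 0.88 in EB KO. A constant shift of a column does not alter this contrast. At 25 to 50 kb, a band that lies within T2 upstream, the excess was 0.73 in ES WT, 1.03 in EB WT, 0.67 in ES KO and 0.74 in EB KO, so EB WT was the most asymmetric there. At 50 to 100 kb, of which T2 fills the part out to 78.0 kb, it was 0.44, -0.15, 0.88 and 1.02 in the same order, and at 100 to 150 kb it was 0.56, -0.29, 0.80 and 0.52. At 150 to 200 kb the excess was 0.89 in ES WT, 0.05 in EB WT, 1.15 in ES KO and 1.37 in EB KO. EB WT was thus the only column whose upstream excess was negative or near 0 in each band beyond 50 kb.

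**Figure D5:**
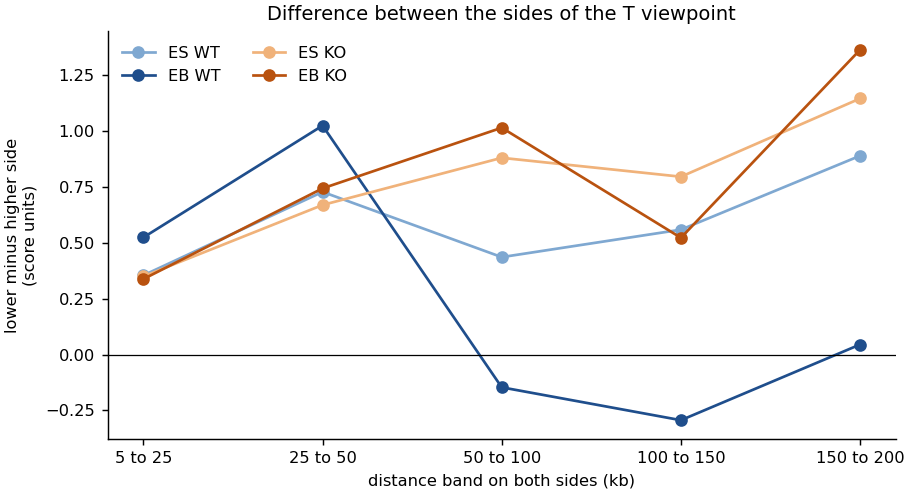
Mean contact score of the lower side minus that of the higher side (vertical axis, score units) in 5 bands of distance (horizontal axis, kb), as 1 point per column joined by lines. The values of ES WT, ES KO and EB KO stay between 0.34 and 1.37, while EB WT goes from 1.03 at 25 to 50 kb to -0.29 at 100 to 150 kb.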

How the data were processed

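UMI-4C was read at the T viewpoint in 8 libraries, 2 each of ES and EB from WT and KO cells. Per the file headers, the authors deposited 1 column of contact scores for each stage and genotype, so the 2 libraries share it. How these scores were smoothed, logged and scaled is not given in the sources used here. The submitters' processing notes name mm10 as the build and list deepTools, BWA and STAR, with no role stated. The columns hold no counts, so the count model planned for separate libraries was not used, no p-value is given, and depth is unknown.

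Finite scores were averaged over windows of 5 kb that start from the viewpoint, leaving out positions under 5 kb and windows with under 3 positions. A difference counted at 0.5 score units, and the background is the share of 335 windows at 4 viewpoints that reached it. Peaks and valleys needed a prominence of 0.3 (SciPy 1.17.1) and edges a step of 0.5 between flanks of 5 kb. Every block, peak and edge that passed was named, and gene spans needed 10 positions. Gene spans and promoters came from RefSeq tables of GRCm38.p6. The scripts were tested on simulated profiles. The members, sizes and lists were chosen with earlier results of these data known. Expression was not analysed here, so the genotype labels could not be checked.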

Additional observations from a re-analysis of the deposited data

Results flagged for a closer look

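Within 3 windows upstream of T the stage difference was at least 0.3 in opposite directions in the 2 genotypes, and this was not tested. At 155 to 160 kb EB minus ES was -0.86 in WT and 0.41 in KO, so KO exceeded WT by 1.27, and at 160 to 165 kb the values were -0.99, 0.39 and 1.37. These neighbouring windows lie around the start of Gm33799 and hold the shared local maximum of ES WT, ES KO and EB KO. Of these columns, ES KO and EB KO are not independent of each other. At 185 to 190 kb, in Ccr6, the values were -0.33 in WT and 0.46 in KO, a difference of 0.79.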

How the results depend on the processing

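No paired analysis was possible because the 2 libraries of each group share 1 column of scores, and for the same reason no library could be left out. No block or side contrast changed sign under the alternatives run, but centring turned the direction of counted windows: from 0 higher and 2 lower to 5 and 0 for KO against WT in ES, from 1 and 0 to 0 and 1 for EB against ES in KO, and from 16 and 28 to 21 and 9 for KO against WT in EB. With a size of 0.3 the share of windows at T was 42.4% for EB against ES in WT, 15.3% for EB against ES in KO, 50.6% for KO against WT in ES and 48.2% for the difference of stage differences. The 50.6% stands for 43 windows, all lower in KO, and the median of that difference, -0.30, lies at this cutoff. Shares over all viewpoints are given for a size of 0.5 only. With 0.75 the shares in the same order were 14.1%, 0%, 0% and 16.5%, and KO against WT in EB had 25.9%. EB against ES in KO gave 0% in windows of 10 kb and 2.33% without windows of low mean score. KO against WT in ES gave 1.20% without positions under 10 kb and 5.88% after centring. Peaks numbered 3 in ES WT, 12 in EB WT, 1 in ES KO and 6 in EB KO at a prominence of 0.2. At 0.5 they were 3 in EB WT and 1 in EB KO. Averaging over 2 kb, added after the values were seen, left 3 in EB WT and 2 in EB KO. The excess of the lower side in EB WT was 0.054 from 20 kb outward. Of 21 blocks, 14 kept 0.5 after centring and 7 did not, with 20 of 21 keeping it as medians over positions.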
